A study of Mus musculus with 82 samples.

Results

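The loci of 10 mouse genes that encode subunits of Polycomb repressive complex 1 (PRC1) were examined in 4 ATAC-seq peak lists: Bcor, Rybp, Yaf2, Pcgf1, Pcgf5, Kdm2b, Cbx2, Cbx7, Ring1 and Rnf2. They are 10 of 21887 protein-coding genes. The genes were chosen by their place in PRC1, with peak counts from these same lists already known, among them the low day 3 count of Bcor and the high day 7 count of Rybp in the D209N lists. Every value below is therefore a description, with no test. A peak was given to a gene when it overlapped the gene, or when its centre lay within 100 kb of a gene end that was the nearest end of any protein-coding gene. The 4 lists were merged into 55274 regions, counting peaks with at least 1 bp in common as the same region, and 74 of these belong to the 10 genes.

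The cells are OG2-MEFs, mouse embryonic fibroblasts infected with retroviruses carrying Oct4, Sox2, Klf4 and c-Myc (OSKM), which turn fibroblasts toward pluripotency. All 4 groups received OSKM, and the labels call the cells reprogramming cells. The Flag groups also overexpressed Flag, which is taken here to be the control of the series design. The D209N groups overexpressed RNase H1(D209N). RNase H1 cuts the RNA strand of RNA:DNA hybrids (R-loops), and D209N is a mutant with an altered active site. Cells were taken at day 3 and at day 7. ATAC-seq marks open chromatin by transposase insertion. The labels give 2 libraries per group, while each group has 1 deposited list, so no value has a replicate error. Every peak name carries rep1, and the sources used here do not say whether a list holds peaks of 1 library, of both, or of 1 trimmed by the other, on which the meaning of a listed peak, its width and a missing number depends. Read depth is unknown, and a locus with no listed peak may be open below the calling threshold. In a bulk culture, a region open in fewer cells and a region less open per cell cannot be told apart.

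PRC1 places ubiquitin on histone H2A and holds developmental genes silent. Its catalytic core pairs RING1 or RNF2 with a PCGF protein. Canonical PRC1 adds a CBX protein, which reads the methylated histone tail left by PRC2, while variant PRC1 carries RYBP or YAF2 in its place. In the variant complex around PCGF1, BCOR is the scaffold and KDM2B tethers the complex to unmethylated CG-rich promoters through its zinc finger. PRC1 subunits are expressed both in fibroblasts and in pluripotent cells, where they restrain lineage genes.

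The lists held between 29189 peaks (D209N day 3) and 42439 (Flag day 7). D209N held 0.802 times the peaks of Flag at day 3 and 0.953 times at day 7. Chromosome X, which carries Bcor, had ratios of 0.741 and 0.971, and chromosome 6, which carries Rybp, 0.785 and 0.956. Median width lay between 464 and 489 bp, but each list also holds between 116 and 174 intervals under 50 bp, down to 1 or 2 bp, and between 146 and 180 peak names that stand on several intervals, so a width is that of the deposited interval. Of 8 fibroblast marker genes, 4 had a peak within 1 kb of a gene end in the Flag lists and 5 in the D209N lists, and Pdgfra, Thy1 and Prrx1 had none in any list. Of 6 pluripotency markers, such a peak lay at 3 in Flag and 1 in D209N at day 3, and at 2 in Flag and 3 in D209N at day 7. The lowest pluripotency marker count was thus in D209N day 3, while the fibroblast markers were not lowest there. Over all genes 51.7% had such a peak in that list, the lowest share of the 4 lists. Bcor and Rybp also had their fewest peaks in it, and the part of the marker differences in those counts was not tested. Nanog, Dppa5a and Esrrb had none in any list. Of 5 macrophage and blood markers and 4 endothelial markers, 2 each had such a peak in every list, and Ptprc, Csf1r, Adgre1, Pecam1 and Cdh5 had none.

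The 10 loci differed widely in how many peaks they held. Bcor and Rybp were peak-rich, with up to 20 and 15 peaks in a list, while Pcgf1, Cbx2 and Ring1 each had 1 peak in every list. Summed over the 10 genes there were 39 peaks in Flag and 23 in D209N at day 3, and 58 in Flag and 54 in D209N at day 7. The day 3 difference of 16 peaks came mostly from 2 loci: without Bcor and Rybp the D209N list held 2 fewer. At day 3, 4 of the 10 genes had fewer peaks in D209N than in Flag (Bcor, Rybp, Yaf2 and Kdm2b), 1 had more (Pcgf5) and 5 had the same number, where 35.1% of all genes with a peak in either list had fewer. The median difference was 0 for the 10 genes and for all genes.

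**Figure D1:**
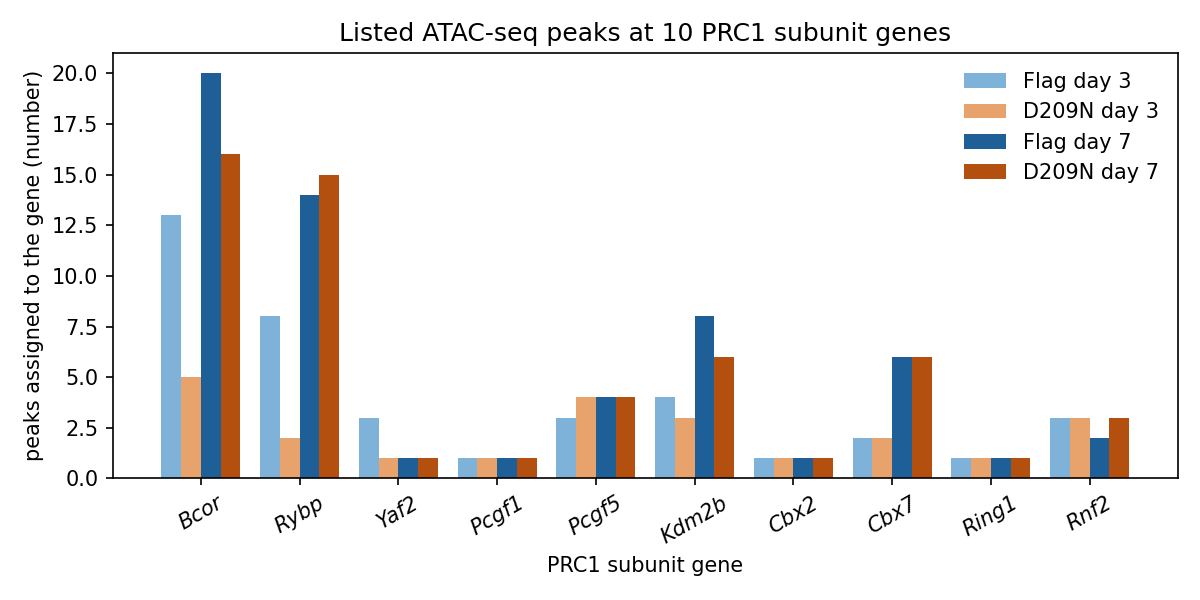
Number of peaks assigned to each PRC1 subunit gene in the 4 lists (bars, 1 list per group, so no error bar). Bcor and Rybp hold up to 20 and 15 peaks and have their lowest count in D209N day 3, while Pcgf1, Cbx2 and Ring1 have 1 peak throughout.

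The catalytic subunits had a listed peak at their start in all 4 lists. Ring1 encodes 1 of the ubiquitin ligases (chromosome 17, 34020792 to 34024680). Its only peak covered the start site, and its width was 552 bp in Flag and 401 bp in D209N at day 3, and 831 bp in Flag and 769 bp in D209N at day 7. It was narrowest in D209N day 3 and wider at day 7 in both arms. Rnf2 encodes the other ligase, RING1B (chromosome 1, 151469398 to 151500991). Its start-site region measured 898, 853, 1122 and 1085 bp in the same order. A second Rnf2 region 14.9 kb from a gene end was listed throughout, and another, 2.56 kb from the opposite end, was missing from Flag day 7 alone.

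The PCGF subunits, which set the identity of each PRC1 complex, also had start or gene-body regions in every list. Pcgf1 (chromosome 6, 83077552 to 83080855) had 1 region inside the gene, of 1030, 1000, 1149 and 1144 bp (Flag then D209N at day 3, Flag then D209N at day 7). Pcgf5 (chromosome 19, 36348329 to 36460970) has 3 start sites in the RefSeq promoter table. Those at 36348329 and 36409748 lay under a peak in every list, and the middle one at 36379067 lay over 29 kb from the nearest peak in every list. The 300-base window of the middle start held 5 CG pairs, against 34 and 35 at the other starts. The upstream start region was listed as 2 intervals in D209N day 3, of 720 and 278 bp, and as 1 in the other lists, which is why Pcgf5 counted 1 peak more there. Of the other Pcgf5 regions, the 1 at 92.0 kb from a gene end was listed at day 3 in both arms (566 and 562 bp) and at day 7 in neither. The remaining 4 were each in 1 day 7 list alone, 2 in Flag and 2 in D209N, so the 2 lists with 4 Pcgf5 peaks each at day 7 shared only its start-site regions.

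Kdm2b, the CG-binding recruiter, is known in a long form and in a shorter form that starts at an internal promoter and lacks the demethylase domain. It lies on the minus strand (chromosome 5, 122870664 to 122989270), and the RefSeq table gives starts at both places. Its peak counts were 4 in Flag and 3 in D209N at day 3, and 8 in Flag and 6 in D209N at day 7. The internal start at 122900350 lay under a peak in every list, of 834, 437, 1095 and 899 bp. At the upstream start, 122989099, the lists differed. In Flag day 3 the nearest peak was 262 bp wide and 218 bp away, and in D209N day 3 it was 5364 bp away. At day 7 the start lay inside a 598 bp peak in Flag and 16 bp from a 416 bp peak in D209N. Only D209N day 3 thus lacked a peak within 1 kb of the upstream start. The Flag day 3 count includes an interval of 34 bp beside a further start at 122988507, and the D209N day 3 count one of 59 bp inside the gene.

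The start-site windows of Bcor, both Kdm2b promoters and Ring1 are shown because they hold the contrast: peaks in every list at Ring1 and at the internal Kdm2b start, in some lists at the upstream Kdm2b start, and in none over the Bcor window. Each runs from 250 bases before to 50 after a start, 5′ to 3′ on the gene's strand, from RefSeq on GRCm38.p6, with CG pairs in capitals. The table held 6 of the 10 genes. It has no entry for Rybp, Yaf2, Pcgf1 and Cbx2.
Ring1, chr17:34024631-34024930, minus strand: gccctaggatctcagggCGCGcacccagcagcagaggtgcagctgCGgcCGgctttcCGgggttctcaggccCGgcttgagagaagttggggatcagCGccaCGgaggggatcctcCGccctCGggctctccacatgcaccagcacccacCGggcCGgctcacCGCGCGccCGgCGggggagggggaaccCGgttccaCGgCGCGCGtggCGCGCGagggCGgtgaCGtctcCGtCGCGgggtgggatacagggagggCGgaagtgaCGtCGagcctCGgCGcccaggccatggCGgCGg
Kdm2b internal start, chr5:122900301-122900600, minus strand: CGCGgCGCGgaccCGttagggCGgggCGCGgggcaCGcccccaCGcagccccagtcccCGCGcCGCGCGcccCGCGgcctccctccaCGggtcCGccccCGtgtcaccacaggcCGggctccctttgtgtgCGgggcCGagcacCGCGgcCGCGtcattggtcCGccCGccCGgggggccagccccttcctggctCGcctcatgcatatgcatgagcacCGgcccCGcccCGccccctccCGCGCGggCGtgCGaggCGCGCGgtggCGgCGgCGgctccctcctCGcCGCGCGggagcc
Kdm2b upstream start, chr5:122989050-122989349, minus strand: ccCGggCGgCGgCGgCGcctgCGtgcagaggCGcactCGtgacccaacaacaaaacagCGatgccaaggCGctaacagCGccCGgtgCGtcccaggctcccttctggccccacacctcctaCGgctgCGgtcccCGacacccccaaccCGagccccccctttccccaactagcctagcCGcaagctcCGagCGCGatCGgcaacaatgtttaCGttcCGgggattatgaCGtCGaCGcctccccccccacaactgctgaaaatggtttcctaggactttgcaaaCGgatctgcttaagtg
Bcor, chrX:12160297-12160596, minus strand: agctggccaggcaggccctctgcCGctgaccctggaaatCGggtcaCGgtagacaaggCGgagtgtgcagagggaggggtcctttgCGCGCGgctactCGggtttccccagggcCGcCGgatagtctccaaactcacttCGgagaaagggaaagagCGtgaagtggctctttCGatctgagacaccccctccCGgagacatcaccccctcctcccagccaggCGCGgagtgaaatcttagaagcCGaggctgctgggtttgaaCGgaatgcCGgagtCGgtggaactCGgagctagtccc

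The Ring1 window holds 37 CG pairs, the internal Kdm2b window 49, the upstream Kdm2b window 28 and the Bcor window 21, and the median over 32851 start-site windows of mouse genes is 7. All 4 are richer in CG than most windows: 94.4%, 99.0%, 85.8% and 75.2% of windows hold fewer. In Ring1, 300 bases of the window lay under a peak in Flag day 3, 172 in D209N day 3 and 300 in both day 7 lists. In the internal Kdm2b window D209N day 3 covered 208 bases and the other lists all 300. In the upstream Kdm2b window Flag day 3 covered 33, D209N day 3 0, Flag day 7 300 and D209N day 7 235. No base of the Bcor window was covered in any list. Across the 12 start-site windows of the 6 genes, searched on both strands, TGANTCA (the AP-1 letters), ATGCAAAT (octamer) and CACGTG (E-box) had no match, against 7.81%, 1.74% and 7.15% of all windows. GGGNGTGG (KLF letters) matched in 4 windows, against 17.6%, and AACAATG (SOX letters) in 1, that of the upstream Kdm2b start, against 3.78%. Some of the 12 windows overlap, and these matches describe letters only.

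Rybp and Yaf2 encode the paralogous subunits that mark variant PRC1. Yaf2 (chromosome 15, 93283833 to 93336935) kept 1 region at a gene end in all lists, of 868, 810, 1620 and 1582 bp, wider at day 7 in both arms. Its 2 other regions, of 362 and 155 bp, were in Flag day 3 alone. Rybp (chromosome 6, 100228565 to 100287358) carried 8 peaks in Flag and 2 in D209N at day 3, and 14 in Flag and 15 in D209N at day 7. The D209N day 3 list held only the region at the gene end, of 866 bp against 1101 bp in Flag, and a region inside the gene, of 299 bp against 393 bp. The 6 Rybp regions that it lacked all lay outside the gene, between 9.85 and 90.9 kb from an end, and measured between 241 and 490 bp in Flag. Of these, 5 were listed in both day 7 lists. A further 6 regions around Rybp were in both day 7 lists and in neither day 3 list. By day 7 the arms shared 13 of 15 Rybp regions, with 1 in each arm alone. The D209N day 7 count was 1 higher than its regions since the gene-end region was listed as 2 intervals.

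Bcor, the scaffold of the PCGF1 complex and a co-repressor of BCL6, had the most peaks of the 10 genes in every list (chromosome X, 12036737 to 12160516, minus strand). It had 13 peaks in Flag and 5 in D209N at day 3, and 20 in Flag and 16 in D209N at day 7. Flag day 3 and D209N day 3 shared 3 Bcor regions, 9 were in Flag alone and 1 in D209N alone. Of the 9, 6 were listed in both day 7 lists and 3 in neither. The 6 in both day 7 lists measured 29 to 516 bp in Flag day 3, and 4 of them lay inside the gene. At day 7, 12 Bcor regions were shared, 8 were in Flag alone and 3 in D209N alone, and 16 of the Flag peaks touched the gene against 11 of the D209N peaks. The 8 regions in Flag day 7 alone measured between 138 and 570 bp.

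The Bcor start itself was poor in peaks. The nearest peak to the start at 12160346 was 1717 bp away in Flag day 3, 1796 bp in D209N day 3 and 1536 bp in D209N day 7. Flag day 7 had in addition a 211 bp peak 156 bp from that start. A region about 2 kb inside the gene was listed throughout, of 306, 231, 524 and 720 bp. The widest Bcor region lay 30.3 kb outside the gene and was also in all lists, with 1072, 1177, 1999 and 1892 bp under peaks, listed as 2 intervals in every list but Flag day 7.

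**Figure D2:**
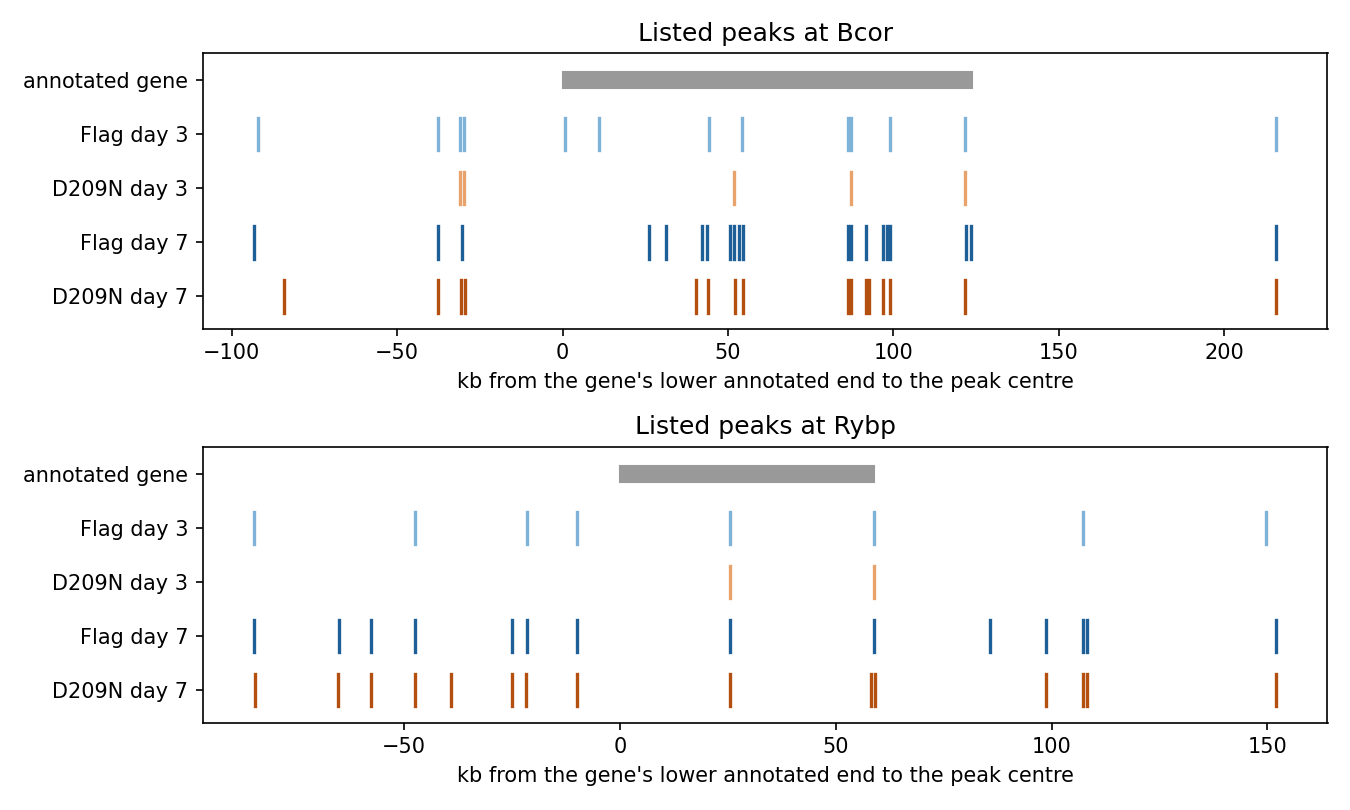
Positions of the listed peaks (ticks at peak centres) at Bcor and Rybp in the 4 lists, in kb from the gene's lower annotated end, with the annotated gene as a grey bar. The D209N day 3 row is sparse at both genes, with 5 and 2 peaks, and at Rybp the 2 lie within the gene or on its end.

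The CBX readers of canonical PRC1 differed from each other. Cbx2 (chromosome 11, 119023019 to 119031275) had 1 gene-end region, of 657, 502, 868 and 889 bp (Flag then D209N at day 3, Flag then D209N at day 7). Cbx7 (chromosome 15, 79915804 to 79971143) had 2 peaks in each day 3 list and 6 in each day 7 list. Its start at 79932646 lay under a peak in every list, of 448, 360, 448 and 468 bp, and a second region inside the gene, 12.0 kb from an end, was also always listed. At day 7 both arms added 3 shared regions inside the gene, of 201 to 390 bp, and each arm had 1 region of its own. Cbx7 thus had the same counts in both arms on both days. The peaks at its start lie nearer to an end of the neighbouring gene Apobec3 and count for Cbx7 by overlap.

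A difference of 4 or more peaks was used to call a gene. At day 3, 2 of the 10 genes (Bcor, by 8, and Rybp, by 6) had at least that many fewer in D209N, where 1.62% of genes did. A deficit of 8 or more was found at 6 of 15633 genes and of 6 or more at 42. Only a gene with that many peaks in Flag can show such a deficit, so peak-poor loci such as Pcgf1, Cbx2 and Ring1 could not. At day 7, Bcor alone did, by 4, where 0.558% of genes did. From day 3 to day 7 in Flag, 4 genes had at least 4 more peaks, where 2.9% did: Bcor had 7 more, Rybp 6, and Kdm2b and Cbx7 4 each. In D209N 3 genes did, where 4.38% did: Rybp had 13 more, Bcor 11 and Cbx7 4. The Bcor deficit at day 3 was 5 with peaks that overlap the gene and 1 with peaks wider than the list median, and the Rybp deficit was 0 and 1. With peaks that overlap the gene, the Rybp gain from day 3 to day 7 was 0 in Flag and 1 in D209N. The Bcor gain was then 8 in each arm. With peaks wider than the list median the gains were 3 in each arm at Rybp and 4 in each arm at Bcor. The comparisons of arms and of days draw on the same 4 lists, so they share their data. Since the genes were chosen with these differences known, nothing is read from how they compare with the share of all genes.

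Gene-end peaks lie within 1 kb of either annotated end, whichever gene they were assigned to. This holds for all counts of such peaks, also those of the markers and the other Polycomb genes. In Flag day 3, 9 of the 10 genes had such a peak, where 55.9% of all genes did. The D209N day 3 list held it at 7 (51.7%), Flag day 7 at 9 (61.5%) and D209N day 7 at 8 (60.4%). Rybp, Yaf2, Pcgf1, Pcgf5, Cbx2, Ring1 and Rnf2 had it in all lists, and Cbx7 in none. The listed Cbx7 start lies inside the annotated gene. Bcor had it in the Flag lists alone, at the end opposite its start on day 3 and at the start on day 7. Kdm2b lacked it in D209N day 3 only.

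Over all 74 regions, 17 were listed in all 4 lists and 12 in every list but D209N day 3, the latter being 16.2% of the 74 against 8.07% of all regions. Bcor held 6 of the 12, Rybp 5 and Kdm2b 1. Of 40 regions listed in either arm at day 3, 19 were in Flag alone (47.5%, where 25.8% of all regions were) and 2 in D209N alone (5%, where 7.3% were). Of the 19, 12 were listed in D209N at day 7, where 52.0% of such regions were. The same number were in both day 7 lists, where 44.6% were. At day 7, of 66 regions, 14 were in Flag alone (21.2%, where 15.6% were) and 8 in D209N alone (12.1%, where 11.7% were). Without Bcor and Rybp, 4 of 19 regions at day 3 were in Flag alone (21.1%, below the share of all regions) and 1 in D209N alone (5.26%). At day 7, 5 of 28 were in Flag alone (17.9%) and 4 in D209N alone (14.3%).

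**Figure D3:**
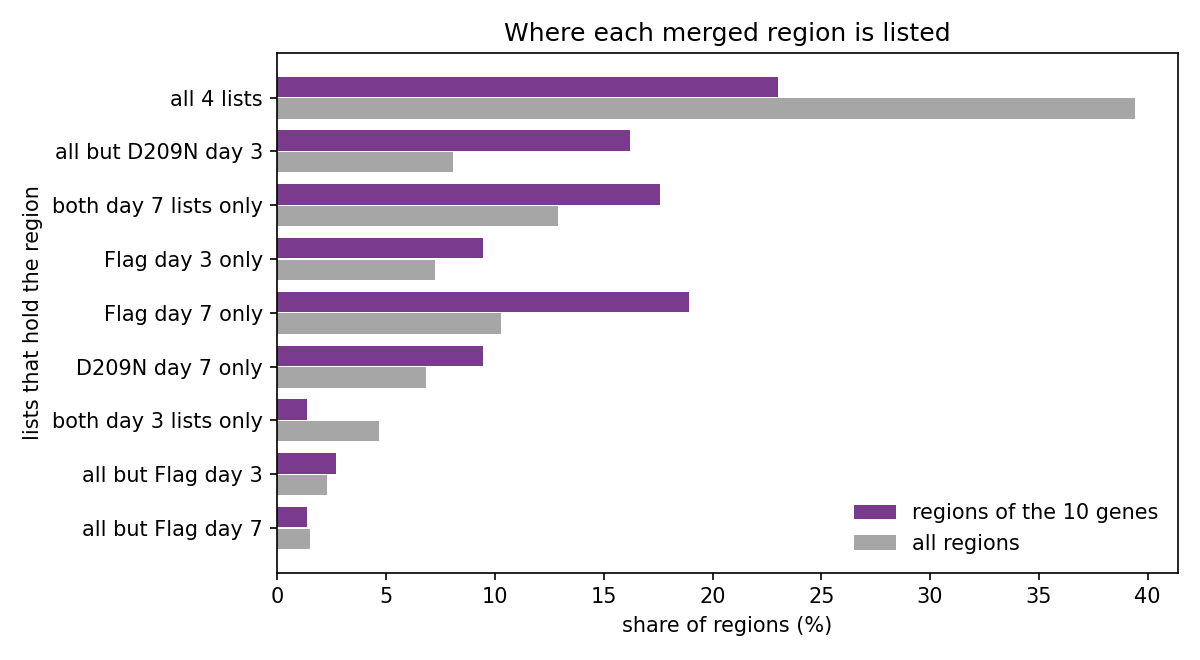
Share of merged regions, in percent, by the lists that hold them, for the 74 regions of the 10 genes (purple) and for all 55274 regions (grey). Only patterns found at the 10 genes are drawn. Regions listed everywhere but in D209N day 3 make up 16.2% at the 10 genes and 8.07% overall.

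From day 3 to day 7, Flag gained 29 of the 67 regions listed on either day (43.3%, where 28.6% of all regions were gained) and lost 9 (13.4%, where 16.3% were). D209N gained 32 of 53 (60.4%, where 35.9% were) and lost 1 (1.89%, where 10.3% were). The gains in D209N lay at Rybp (12), Bcor (11), Cbx7 (4), Kdm2b (3) and Pcgf5 (2), and its 1 loss at Pcgf5. The Flag gains lay at Bcor (11), Rybp (7), Kdm2b (5), Cbx7 (4) and Pcgf5 (2). Ring1, Pcgf1 and Cbx2 neither gained nor lost a region in either arm. Without Bcor and Rybp, Flag gained 11 of 29 regions (37.9%) and D209N 9 of 24 (37.5%), the latter near the 35.9% of all regions.

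The regions listed everywhere also differed in width. Of the 17, 14 had fewer bp under peaks in D209N than in Flag at day 3, where 68.7% of all 21785 such regions did. Their median was 657 bp in Flag and 437 bp in D209N at day 3, and 868 bp in Flag and 889 bp in D209N at day 7, against 621, 542, 690 and 701 bp over all such regions. From day 3 to day 7, 12 of the 17 had more bp in Flag, where 67.1% did, and 16 in D209N, where 79.8% did. At day 7, 9 had more bp in D209N than in Flag, where 52.2% did. The 19 regions of Flag day 3 that D209N lacked were narrow, with a median of 292 bp against 566 bp for the 19 it shared, and over all regions the medians were 288 and 578 bp.

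The deposited names allow a second count at each locus. Each name ends in a serial number that ascends along every chromosome with gaps, and over whole lists 90.0% of the numbers spanned were present in Flag and 79.5% in D209N at day 3, and 78.5% in Flag and 73.0% in D209N at day 7. The numbers were counted between the nearest regions on either side of a locus that all 4 lists hold. Around Rybp, Flag day 3 spanned 9 numbers and listed 9, while D209N day 3 spanned 8 and listed 2. The 2 day 7 lists each spanned 17 and listed 16. Numbers spanned at Rybp thus differed by 1 between the arms at day 3, and numbers listed by 7. Whether a missing number stands for a peak that was called is not known. Around Bcor, Flag day 3 spanned 21 and listed 19, D209N day 3 spanned 11 and listed 6, Flag day 7 spanned 36 and listed 30, and D209N day 7 spanned 42 and listed 26. The Bcor difference was present in both measures at day 3. At day 7 the order of the arms turned, with 6 more numbers in D209N and 4 fewer listed. Over whole lists D209N spanned 0.907 times the numbers of Flag at day 3 and 1.03 times at day 7. It held 0.802 and 0.953 times the peaks, so the order turned there too at day 7. Missing numbers can be placed only in part, where they fall between listed peaks of the locus. At Bcor these were 1 of 2 in Flag and 1 of 5 in D209N at day 3. At day 7 they were 2 of 6 in Flag and 10 of 16 in D209N. At Rybp they were 0 of 6 in D209N day 3 and 1 of 1 in each day 7 list. The others may lie inside or outside the locus. The flanks reach 1230 kb and 335 kb past the Bcor locus, and 120 kb and 41 kb past that of Rybp. No label or header records why numbers are missing, and their part in the differences was not tested.

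**Figure D4:**
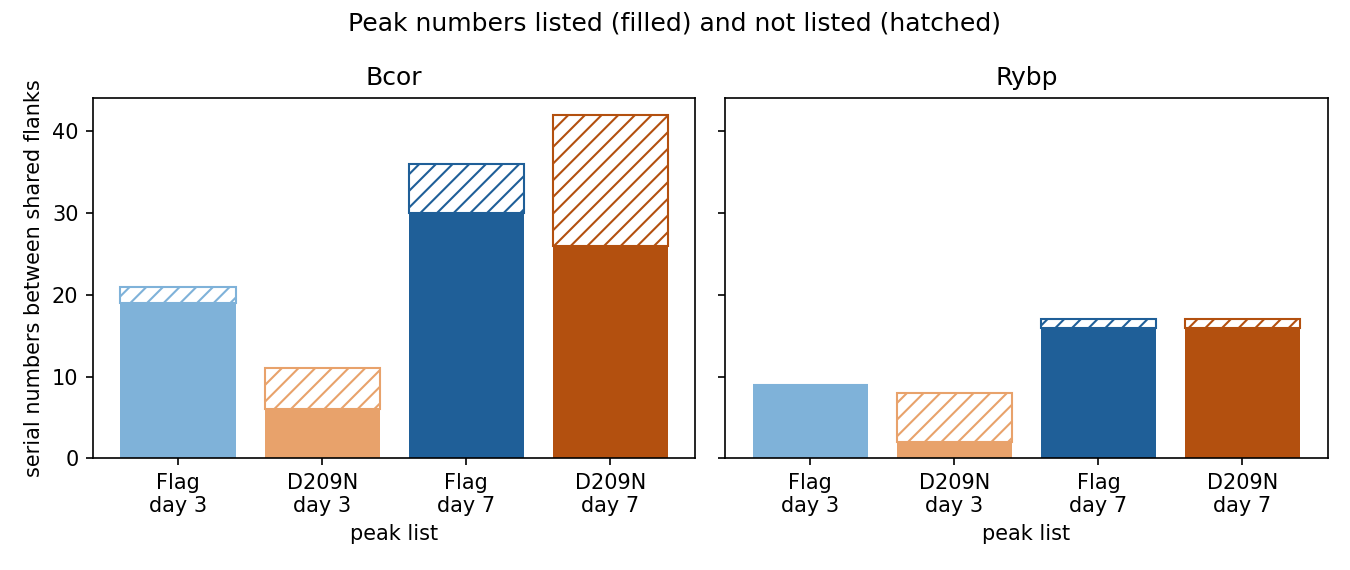
Serial numbers in the peak names between the flanking regions shared by all 4 lists at Bcor and Rybp, listed (filled) and not listed (hatched). At Rybp D209N day 3 spans 8 numbers and lists 2, against 9 and 9 in Flag day 3.

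Summed over the stretches between the flanks of the 10 loci, the numbers spanned were 54 in Flag and 41 in D209N at day 3. At day 7 they were 103 in Flag and 114 in D209N. Of these, 92.6%, 61.0%, 82.5% and 68.4% were listed. The stretches take in peaks outside the loci. Cbx2, with 1 peak in each list and a flank 545 kb away, spanned 16 numbers in Flag and 19 in D209N at day 7. In the sums the order of the arms at day 7 was the opposite of that by listed numbers, 85 in Flag and 78 in D209N. The same turn was seen over whole lists. Yaf2 spanned 4 numbers in each day 3 list and listed 3 in Flag and 1 in D209N. Kdm2b spanned 4 in each and listed 4 and 3.

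Of 37 other Polycomb genes, listed with earlier results of these data known, 14 had fewer peaks in D209N at day 3, 4 had more and 19 the same, a median difference of 0. At day 3 that is 37.8% with fewer and 10.8% with more, near the 35.1% and 8.26% of all genes with a peak in either list. The Polycomb shares count all 37 genes, with or without a peak in either list. From day 3 to day 7 in Flag, 11 had fewer peaks (29.7%, where 15.5% of all genes did) and 10 had more (27.0%, where 38.9% did). In D209N 5 had fewer (13.5%, where 9.44% did) and 15 more (40.5%, where 46.0% did). At day 7, 5 had fewer in D209N than in Flag (13.5%, where 24.1% did) and 8 more (21.6%, where 15.1% did). A peak lay within 1 kb of a gene end in all lists at 30 of the 37 (81.1%), where 50.6% of all genes had one. Differences of 4 or more were found at 2 of them. At day 3 both had at least 4 fewer in D209N, where 1.62% of genes did, and from day 3 to day 7 Auts2 had 4 fewer in Flag, where 0.77% did, and Jarid2 4 more in D209N, where 4.38% did. Auts2, a subunit of PCGF3 and PCGF5 complexes, had 13 peaks at day 3 in Flag against 7 in D209N, and 9 in each arm at day 7. Jarid2, which guides PRC2, had 9, 5, 8 and 9 in the order Flag day 3, D209N day 3, Flag day 7, D209N day 7. Gene-end peaks of Epop, a PRC2 accessory factor, and Mga, of the PCGF6 complex, were missing from D209N day 3 alone. Phf19, a PRC2 accessory factor, lacked it in Flag day 3 alone, and Bcorl1, the Bcor paralogue, in both day 3 lists. Of the 20 other PRC1 genes 7 had fewer peaks in D209N at day 3 (35.0%), of the 12 PRC2 genes 5 (41.7%), and of the 5 genes of H2A deubiquitination 2 (40.0%), all near the 35.1% of all genes.

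Among the genes most like Bcor over the 4 lists, by the smallest summed absolute difference of the counts, were Tshz2 (11, 7, 18 and 16 peaks, in the same order as above) and Zfp516 (11, 6, 16 and 16). Those most like Rybp were Cacna1a (7, 3, 14 and 14), Zfp536 (8, 4, 14 and 17) and Tmcc3 (9, 5, 14 and 15). The summed differences were 6 and 7 peaks from Bcor and 3, 4 and 4 from Rybp. Each of these genes had its lowest count in D209N day 3, which follows largely from their choice by these same counts. At the edge of the 100 kb rule, the farthest regions kept lay 93.2 kb from Bcor and 93.2 kb from Rybp, and the next ones beyond the limit lay 187 and 101 kb away.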

How the data were processed

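The labels name 8 ATAC-seq libraries (2 per group). The authors deposited 1 list of peak positions per group, without scores or read counts, and which libraries entered a list is not known. Tools named in the submitters' processing notes are CASAVA and Bowtie2 2.3.2, with mm10 and GRCm38.p5 as builds. Not given in the sources used here were the peak caller, its threshold, any shift of transposase ends and how replicates were joined. All peak names carry rep1. Arm and day in those names tied a list to its group. The RNA-seq, R-loop and CLIP-seq samples were not analysed here. Mitochondrial intervals (3 per list) were left out. Gene positions are RefSeq's on GRCm38.p6, and start sites those of its promoter table.

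Assignment, merging and counting used Python 3.11.15 (numpy 2.4.6, pandas 2.3.3), and were tested on simulated data. With 1 list per group no test was made. Members and gene lists were chosen with earlier results of these data known. Named genes were all members, the Polycomb genes with a difference of 4 or more peaks or a gene-end peak in some lists only, and the 3 genes closest in counts to Bcor and to Rybp. An item that this rule named is not reported here.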

Additional observations from a re-analysis of the deposited data

How the results depend on the processing

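The sums over the 10 genes kept their direction under other distances, overlaps, widths and merging, apart from the day 7 arm difference, which was 0 with peaks wider than the list median. D209N minus Flag at day 3 went from -16 to -8 within 20 kb, -6 with gene overlap only and -5 with wider peaks. The day 7 minus day 3 difference in Flag went from 19 to 7 with wider peaks, and that in D209N from 31 to 16 within 20 kb, 15 with gene overlap and 12 with wider peaks. The nearest gene end alone, and merging within 200 bp, moved no sum by over 1.5 times. Of the 10 differences of 4 or more peaks at single genes, 7 stayed at 4 or more within 20 kb. With gene overlap 6 did, and with wider peaks 2 did. None reversed, but 1 fell to 0 within 20 kb, 2 with gene overlap and 1 with wider peaks. With wider peaks, regions in 1 arm only went from 21 to 5 at day 3 and from 22 to 14 at day 7, and regions gained or lost from 38 to 11 in Flag and from 33 to 14 in D209N. An overlap of 50% and other gene-end windows moved no count by over 1.5 times. In the cases above the cause was not tested, beyond fewer peaks entering each count.

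Alternatives chosen after seeing the data left out loci or used serial numbers. Without Bcor the 4 peak differences (arms at day 3 and day 7, then days in Flag and D209N) were -8, 0, 12 and 20. Without Rybp they were -10, -5, 13 and 18, and without both -2, -1, 6 and 7. Regions in 1 arm only at day 3 and day 7, then gained or lost in Flag and D209N, numbered 11, 11, 24 and 22 without Bcor, 15, 20, 30 and 21 without Rybp, and 5, 9, 16 and 10 without both. By serial numbers between shared flanks the differences were -13, 11, 49 and 73. The day 7 arm difference was thus reversed, as it was over whole lists. By listed numbers between those flanks the differences were -25, -7, 35 and 53. No replicate could be left out. No paired analysis was possible because each group has 1 list. Depth is unknown, so no count could be set against it.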
